A study of Mus musculus with 2 samples.

Results

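The genes described here encode the muscle-type nicotinic acetylcholine receptor and the proteins that place and serve it at the neuromuscular junction. The 10 members were taken by symbol from the gene list of both libraries, which holds 25906 genes: the receptor subunits Chrna1, Chrnb1, Chrnd, Chrng and Chrne, the agrin receptor complex and receptor clustering genes Musk, Lrp4, Dok7 and Rapsn, and Ache. They were measured in 2 single-cell RNA libraries of mouse induced myogenic progenitor cells (iMPCs), which are proliferating Pax7-expressing cells made from embryonic fibroblasts (MEFs). Reprogramming used forced Myf6 expression together with forskolin, RepSox and CHIR99021, and colonies that no longer needed Myf6 were picked. The MyoD-WT group (WT) is 1 clone and the MyoD-KO group (KO) is 1 clone, both at passage 4 and both with the strain label Myod1tm1Jae. Both grew in iMPC medium with 5 µM forskolin, 5 µM RepSox, 3 µM CHIR99021 and 10 ng/mL bFGF. The labels name no neuron in these cultures. With 1 library per genotype no test between genotypes is possible, genotype and clone cannot be told apart, and every interval below is a 95% counting interval for these libraries only.

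The muscle receptor is a pentamer of a pair of α subunits with a β, a δ and either a γ subunit in fetal and denervated muscle or an ε subunit at adult junctions. Nerve-derived agrin binds Lrp4, which activates the receptor tyrosine kinase MuSK, and Dok7 binds and activates MuSK from inside the cell, after which rapsyn (Rapsn) anchors the receptor in dense clusters. Acetylcholinesterase (Ache) ends the signal by splitting acetylcholine. Subunit genes are textbook targets of the myogenic bHLH factors MyoD, myogenin, Myf5 and Myf6, which bind E-boxes in their promoters, and ε is induced by neural signals through a motif called the N-box.

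The libraries held 8191 WT and 7670 KO barcodes with 285232252 and 282739488 UMIs (unique molecular identifiers, each marking 1 captured transcript). Filters left 7316 cells of WT, with 35515.5 UMIs at the median, and 5638 of KO, with 40426.5, and 14 deposited barcodes occur in both libraries. Levels are given as CPM, the UMIs of a gene per 1000000 UMIs of the same cells. The targeted gene Myod1 had a level of 162 CPM over all WT cells but 63.3 over those of KO, a KO/WT ratio of 0.390. The labels do not give the deleted part of the gene, so these 3' tags may lie outside it and do not check the label. Cells were sorted into states by genes outside the member list. Muscle-rich cells drew at least 5% of their UMIs from 27 sarcomere genes, and the rest were Pax7+ (Pax7 at least 50 CPM in the cell, Myog under 100), double-positive, Myog+ (Myog at least 100 CPM, Pax7 under 50) or neither. WT held 4161 Pax7+ cells, 638 double-positive, 998 Myog+, 840 muscle-rich and 679 in none of these states. KO held 2892, 371, 762, 1001 and 612. The muscle-rich class is a range and not a cell type: 275 WT and 97 KO cells lay between 4 and 6% sarcomere share. Muscle-rich KO cells went further along this range (median share 10.1%, highest 24.2%) than WT cells (7.97% and 17.4%), while Myog+ KO cells were less far along (0.305% against 0.900%). Of 7 motor neuron genes Chat and Slc18a3 were at 0 UMIs in every state of both libraries. Others on that list were higher in KO: in Pax7+ cells Isl1 was at 22 CPM against 11, Slc5a7 at 9.77 against 0.0880, Stmn2 at 3.50 against 0.126 and Snap25 at 2.09 against 0.145. Summed Schwann cell markers reached at most 5.43 CPM. The 7 fibroblast markers summed to 519 CPM in KO Pax7+ cells against 103, nearly all Col3a1 (512 and 90.2 CPM), while Postn of the same list was lower in KO (0.499 against 12.6 CPM). The smooth muscle list was lower in KO, at 171 against 759 CPM in Pax7+ and 748 against 2440 CPM in muscle-rich cells, mostly Acta2. The part of other cells in the differences below was not tested.

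RefSeq promoters (GRCm38.p6) were at hand for 7 of the 10 members, in 8 entries. The 4 shown are those of subunits that follow different courses below: the α, β and γ genes of the fetal receptor, whose levels were higher towards the muscle-rich cells, and the ε gene, which was nearly silent. Each run is the 250 bases before the annotated start, 5′ to 3′ on the gene's own strand. Capitals mark E-boxes (CANNTG) and, in the ε gene, also the N-box letters CCGGAA, both searched on both strands.
Chrna1, chr2:73580339-73580588, minus strand: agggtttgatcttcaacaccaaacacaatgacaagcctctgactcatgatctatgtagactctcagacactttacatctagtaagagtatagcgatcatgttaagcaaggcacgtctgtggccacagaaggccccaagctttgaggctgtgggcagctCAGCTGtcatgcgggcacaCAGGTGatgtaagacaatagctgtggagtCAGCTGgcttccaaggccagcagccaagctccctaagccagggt
Chrnb1, chr11:69795938-69796187, minus strand: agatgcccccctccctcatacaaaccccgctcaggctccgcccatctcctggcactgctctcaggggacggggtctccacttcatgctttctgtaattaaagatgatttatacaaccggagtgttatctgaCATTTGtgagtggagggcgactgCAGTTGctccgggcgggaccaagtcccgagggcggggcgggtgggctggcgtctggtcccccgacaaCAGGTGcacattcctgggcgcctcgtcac
Chrng, chr1:87205561-87205810, plus strand: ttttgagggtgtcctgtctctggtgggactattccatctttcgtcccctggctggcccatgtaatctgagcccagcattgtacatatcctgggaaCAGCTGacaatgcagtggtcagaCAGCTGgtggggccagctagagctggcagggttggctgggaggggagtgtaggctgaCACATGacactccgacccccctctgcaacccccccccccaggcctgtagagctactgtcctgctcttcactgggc
Chrne, chr11:70619195-70619444, minus strand: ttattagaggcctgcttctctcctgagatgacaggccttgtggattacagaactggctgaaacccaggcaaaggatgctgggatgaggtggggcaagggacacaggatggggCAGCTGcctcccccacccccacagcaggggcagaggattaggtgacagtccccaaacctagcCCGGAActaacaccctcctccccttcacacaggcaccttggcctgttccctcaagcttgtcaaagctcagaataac
Positions are those of the first letter, counted back from the start. The Chrna1 run holds CAGCTG at -92 and at -44, with CAGGTG at -73 between them. The Chrng run holds CAGCTG at -155 and -132 and CACATG at -75. The Chrnb1 run has 3 E-boxes but none reads CAGCTG, the nearest to the start being CAGGTG at -29. The Chrne run has a single E-box, CAGCTG at -138, and CCGGAA at -76. Musk has 3 E-boxes (CAGCTG at -68), Dok7 has 1 in the first of its 2 entries and 0 in the other, and Ache has 1 (CACGTG at -199). Such letters are common: of 32851 RefSeq promoter windows of the same length, 66.2% hold CANNTG, 12.2% hold at least 3 of them, 13.0% hold CAGCTG and 12% hold CCGGAA or its reverse complement. A match describes the letters and is not a binding site.

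Chrna1, which encodes the acetylcholine-binding α subunit, had the steepest course of the subunit genes that passed 10 CPM. In WT it was at 34.3 CPM in Pax7+ cells, 162 in double-positive, 282 in Myog+ and 832 (822 to 842) in muscle-rich cells. In KO the same states were at 8.78, 23.9, 57.1 and 422 (416 to 428) CPM. Each step was upward in both libraries, and KO was below WT in every state. The gap was 3.91-fold in Pax7+, 6.78-fold in double-positive, 4.93-fold in Myog+ and 1.97-fold in muscle-rich cells. In KO cells with the fibroblast gene Dcn, the background given with the detection per cell, Chrna1 was at 39.8 CPM (34.8 to 45.3). The WT Pax7+ level was near that value and the KO Pax7+ level well under it. This background comes from the KO library only, and whether it is free RNA or made by those cells was not tested. As a percent of the muscle-rich level, both Pax7+ levels also lay inside the free-RNA range given further below. The Pax7+ gap is thus not read as a difference in expression by Pax7+ cells. In double-positive cells the KO level was also under that background. The size of the gap there carries this limit on its KO side. The steps differed in size: Myog+ cells stood 8.21-fold over Pax7+ cells in WT and 6.51-fold in KO, whereas muscle-rich cells stood 2.95-fold over Myog+ cells in WT and 7.39-fold in KO.

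Chrng, the fetal γ subunit gene, was at 13.4, 44.5, 85.8 and 227 CPM along the 4 states of WT, against 11.7, 22.7, 43.2 and 251 CPM in those of KO. The KO value was below WT by 1.96-fold in double-positive and 1.99-fold in Myog+ cells, close to the 2-fold rule used for calls, and above it by 1.10-fold (1.07 to 1.14) in muscle-rich cells. The muscle-rich difference of Chrng nearly vanished with another scaling (log2 0.14, or 0.03 after TMM). Chrnb1, the β subunit gene, lay within 1.27-fold between the clones in each of the 4 states. It went from 7.89 through 16.2 and 26.2 to 42.8 CPM in WT and from 10.0 through 15 and 23.1 to 43.1 CPM in KO. In muscle-rich cells the KO/WT ratio of Chrnb1 was 1.01 (0.941 to 1.08), an interval that includes no difference, and its sign turns with the scaling (log2 0.01, or -0.10 after TMM).

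Chrnd, the δ subunit gene, was higher at each step in WT, as its partners were, but not in KO below the muscle cut. In WT it was at 30.9 CPM in Pax7+, 43.6 in double-positive, 52.1 in Myog+ and 93.1 in muscle-rich cells. In KO it started at 90.5 CPM in Pax7+ cells, was at 81.4 and 64.6 CPM in the next states and reached 171 CPM in muscle-rich cells. KO was thus above WT in every state, by 2.93-fold (2.83 to 3.03) in Pax7+, 1.87-fold in double-positive, 1.24-fold in Myog+ and 1.84-fold in muscle-rich cells. The difference in Myog+ cells nearly vanished with another scaling (log2 0.31, or 0.08 after TMM). Among Pax7+ cells, the KO level of Chrnd was 1.40-fold that of the KO Myog+ cells, while in WT the order was the opposite.

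Chrne, the adult ε subunit gene, was the 1 member that reached 10 CPM in no state. WT cells held 4 Chrne UMIs in all, 1 in Pax7+, 0 in double-positive and Myog+ and 2 in muscle-rich cells, the last being 0.0640 CPM (0.00775 to 0.231). KO cells held 58, of which 25 were in muscle-rich cells, 0.555 CPM (0.359 to 0.819). The KO/WT ratio in muscle-rich cells was 8.67, with a counting interval of 2.16 to 75.5. As a share of γ plus ε UMIs, ε made up 0.0281% (2 of 7109) of WT and 0.221% (25 of 11327) of KO muscle-rich cells. The annotation places a gene on the other strand over Chrne (4930544D05Rik, also in the gene list).

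**Figure D1:**
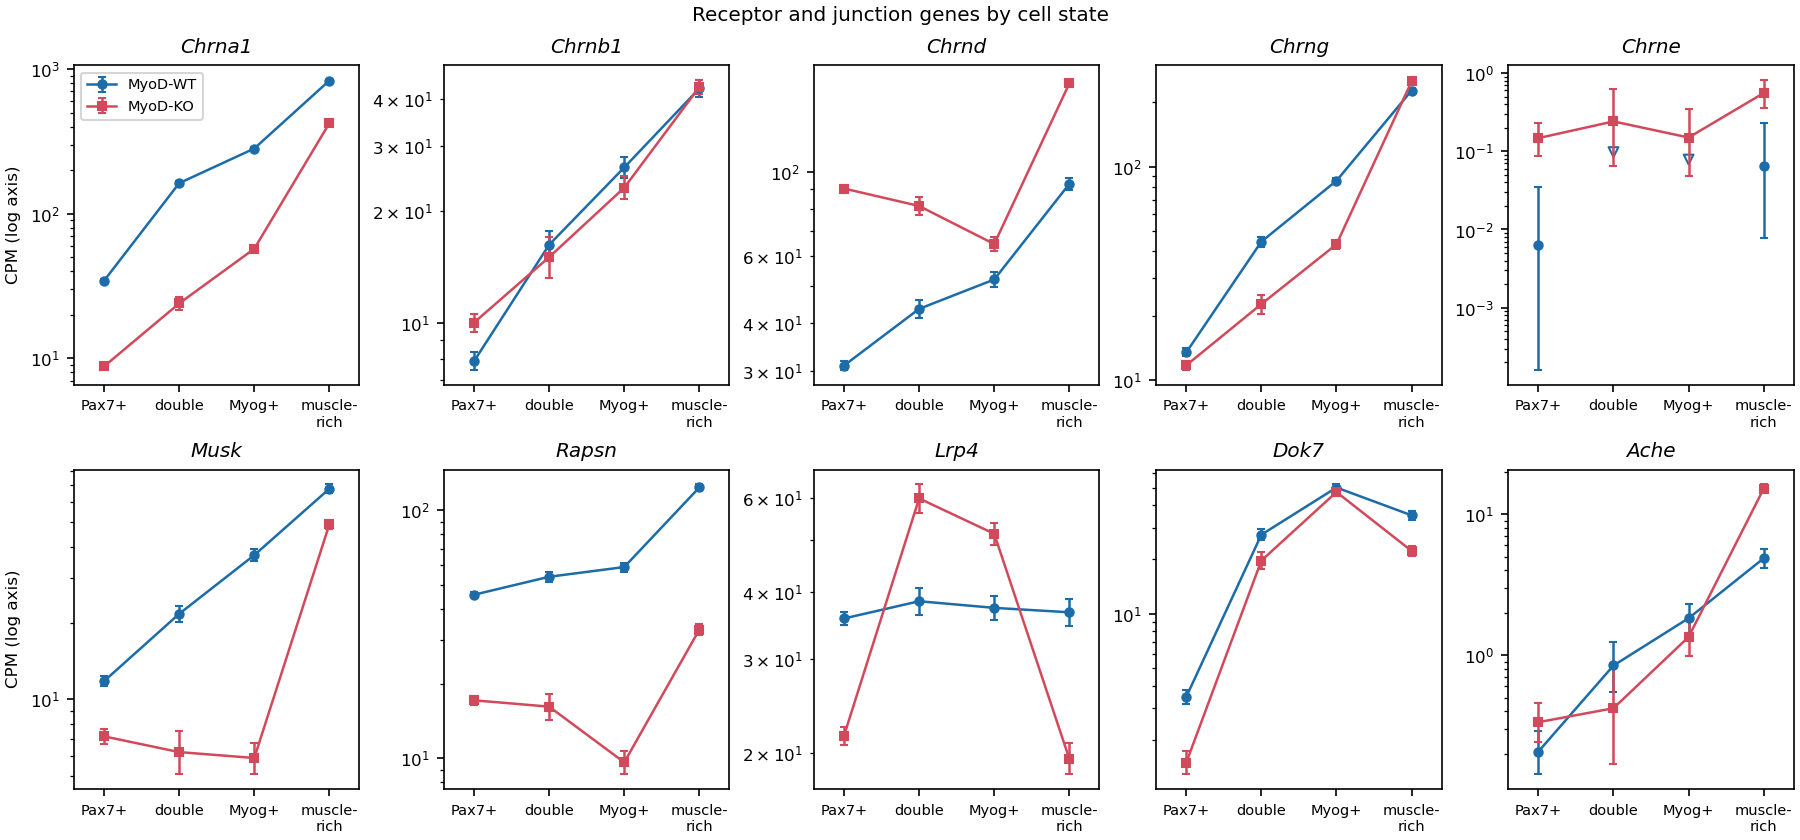
Level of each member in CPM (log axis, scaled per panel) in the Pax7+, double-positive, Myog+ and muscle-rich cells of the WT (circles) and KO (squares) library. Bars are 95% Poisson intervals of the summed UMIs and open triangles mark the limit that 0 UMIs allow. Chrna1 and Rapsn lie lower in KO in every state and Chrnd higher.

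The make-up of receptor transcripts differed between the clones in each state. The 5 subunit genes together were at 1195 CPM in WT and 888 CPM in KO muscle-rich cells, and at 86.6 and 121 CPM in Pax7+ cells. Chrna1 held 39.7% of these UMIs in WT Pax7+ cells and 7.25% in KO Pax7+ cells. Chrnd held 35.7% and 74.7% there, and the same limit on Chrna1 in Pax7+ cells applies to these shares. In Myog+ cells Chrna1 held 63.2% in WT and 30.4% in KO, and Chrnd held 11.7% and 34.3%. In muscle-rich cells the make-up was Chrna1 69.6% and 47.6%, Chrng 19.0% and 28.2%, Chrnd 7.79% and 19.3%, and Chrnb1 3.58% and 4.86%, WT before KO. Genes differ in how well their 3' ends are captured, so these shares compare libraries and states and are not subunit ratios of a receptor.

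**Figure D2:**
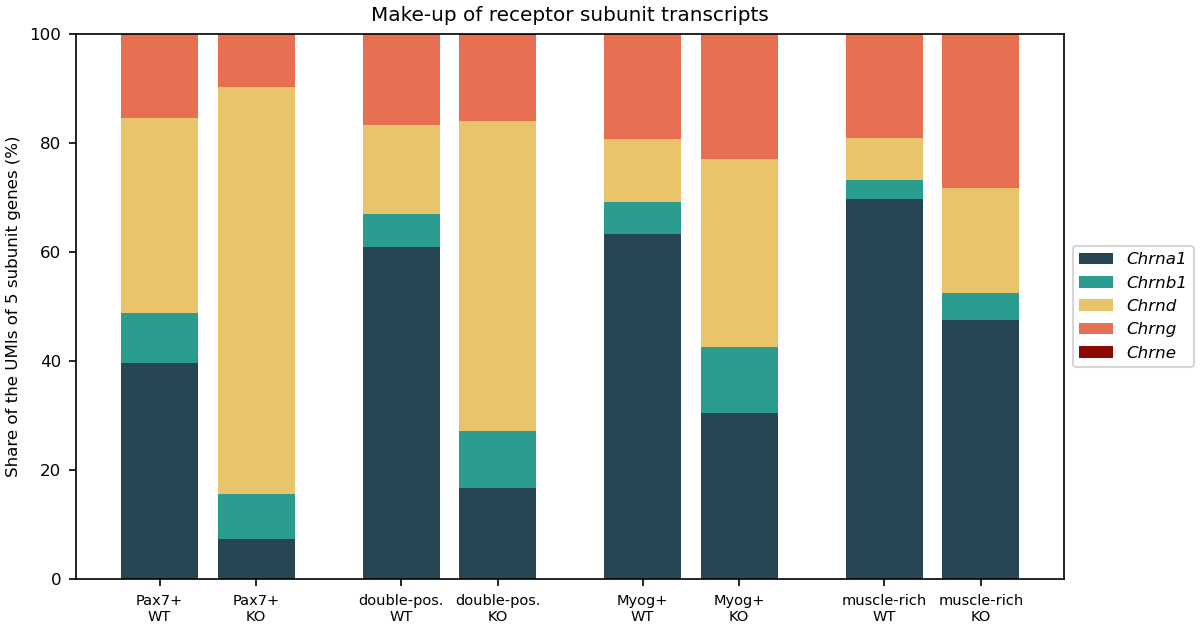
Share (%) of the UMIs of the 5 subunit genes held by each gene, for 4 states of the WT and KO libraries. The Chrnd band is widest in KO Pax7+ cells (74.7%) and the Chrna1 band in WT muscle-rich cells (69.6%), and Chrne is too small to see.

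Detection in single cells was compared after thinning every cell to 5000 UMIs, which left out 80 WT and 169 KO cells. Of muscle-rich cells it kept 815 of 840 in WT and 888 of 1001 in KO, so KO lost more cells of low depth there. Chrna1 was detected in 90.7% of 815 WT and 75.0% of 888 KO muscle-rich cells (unthinned 96.7% and 86.8%), and Chrng in 61.8% and 61.4% (unthinned 93.1% and 82.8%). Chrnd was detected in 35.8% and 50.9% of them. At full depth its shares were 86.8% and 82.7%, the opposite order to its CPM, and no order is read from these. In Pax7+ cells Chrnd was detected in 14.0% of 4150 thinned WT and 33.1% of 2886 thinned KO cells (unthinned 63.6% and 88.3%), and Chrna1 in 14.6% and 4.57% (unthinned 58.0% and 27.1%). As a background, the 118 KO cells that fell in no state and had the fibroblast gene Dcn at 100 CPM or more showed Chrna1 in 12.7%, Chrnd in 3.39% and Chrng in 0 of 118 (which allows up to 2.54%), at a median of 46083 UMIs against 38974 in KO Pax7+ cells. The Chrna1 share in KO Pax7+ cells was below that background and is not read as expression. The WT share lay inside the interval of that background (7.29 to 20.1%), and WT had 1 such cell. The Chrnd share in KO Pax7+ cells lay above the background interval (0.931 to 8.45%). The 4 fetal subunit genes (Chrna1, Chrnb1, Chrnd and Chrng) were all detected in 64.3% of 840 WT and 64.2% of 1001 KO muscle-rich cells at full depth, and in 4.79% and 6.98% after thinning. None of the 4 was detected in 4.54% of the thinned WT and 8.45% of the thinned KO muscle-rich cells (unthinned 1.55% and 7.39%).

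Musk, the kinase that triggers receptor clustering, was at 11.8, 21.8, 37.1 and 67.8 CPM in Pax7+, double-positive, Myog+ and muscle-rich cells of WT. In KO it was at 7.14, 6.19, 5.87 and 49.1 CPM. The WT course climbed at each step. In KO the lower 3 states had overlapping intervals between neighbours, and the level of muscle-rich cells was 8.37-fold that of Myog+ cells. The gap between the clones was widest in Myog+ cells, 6.32-fold (5.44 to 7.38), and 1.38-fold (1.30 to 1.47) in muscle-rich cells. The KO intervals of the lower 3 states overlapped that of the KO background cells with Dcn, at 5.36 CPM (3.64 to 7.61). The KO side of the gaps in those states is thus not told apart from the level of these Dcn cells, whose source was not tested.

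Lrp4, the agrin receptor on the muscle side, was at 35.7, 38.4, 37.4 and 36.6 CPM along the states in WT, with overlapping intervals of neighbouring levels. Within WT muscle-rich cells it was at 39.1 CPM at 5 to 8% sarcomere share, 36.7 at 8 to 11% and 18.8 at 11 to 15%. The KO levels in these ranges were 27.2, 21.0 and 11.4 CPM, so the lower level at the far end was seen in both libraries. In KO it was at 21.5 CPM in Pax7+ cells, 59.9 in double-positive, 51.4 in Myog+ and 19.5 in muscle-rich cells. Its level in KO thus peaked in the 2 Myog-expressing states below the muscle cut and was lowest at both ends, the ends being 1.11-fold apart with a sign that turns under TMM (log2 -0.14, or 0.38 after TMM). Against WT, KO Lrp4 was 1.66-fold lower in Pax7+, 1.38-fold higher in Myog+ and 1.88-fold lower in muscle-rich cells.

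Dok7, the cytoplasmic activator of MuSK, was at 3.46 CPM in Pax7+, 27.4 in double-positive, 50.1 in Myog+ and 35.1 in muscle-rich cells of WT. In KO the values were 1.5, 19.7, 47.3 and 22.3 CPM. Dok7 was thereby the 1 member whose level peaked in Myog+ cells in both libraries, by 1.43-fold over muscle-rich cells in WT and 2.12-fold in KO. The KO/WT ratio of Myog+ cells was 0.944 (0.883 to 1.01), an interval that includes no difference. It depends on the scaling (log2 -0.08, or -0.31 after TMM), so equal levels are not read from it.

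Rapsn, the scaffold that clusters the receptor, was the member furthest below WT in the muscle-rich cells of KO. WT levels were 45.7, 54.0, 59.1 and 124 CPM along the states and KO levels were 17.1, 16.2, 9.64 and 33.1 CPM. KO was lower in every state, by 2.67-fold in Pax7+, 3.34-fold in double-positive, 6.13-fold (5.45 to 6.91) in Myog+ and 3.74-fold (3.52 to 3.98) in muscle-rich cells. The KO Myog+ interval (8.62 to 10.8 CPM) overlapped that of the KO background cells with Dcn, at 7.78 CPM (5.68 to 10.4). The KO side of the Myog+ gap is thus not told apart from the level of these Dcn cells, whose source was not tested. Rapsn was detected in 46% of thinned WT and 16.2% of thinned KO muscle-rich cells (unthinned 91.2% and 62.2%). In KO its lowest level was that of Myog+ cells, at 0.562 of the Pax7+ level, while in WT Myog+ cells were at 1.29 times the Pax7+ level.

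Ache, the esterase of the synaptic cleft, was near the floor outside muscle-rich cells. WT levels were 0.207, 0.845, 1.83 and 4.86 CPM and KO levels were 0.335, 0.421, 1.35 and 15.2 CPM along the states. The intervals of the clones overlapped in Pax7+, double-positive and Myog+ cells. In muscle-rich cells Ache was 3.12-fold (2.61 to 3.74) higher in KO, from 684 UMIs against 152. Of thinned muscle-rich cells 8.45% showed an Ache UMI in KO and 2.21% in WT (unthinned 33.6% and 12.1%).

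A gene was called between a pair of profiles when it differed at least 2-fold with at least 10 CPM in the higher one. Between the clones, 8 members reached 10 CPM over all cells, where Chrnd was called higher in KO (background 13.3% of 8793 genes) and Rapsn lower (3.4%). In Pax7+ cells 7 reached it, Chrnd being called higher (13.8% of genes) and Chrna1, with the limit given above, and Rapsn lower (4.11%). In double-positive cells 0 of 8 were called higher (12.7%) and 3 lower (4.78%), namely Chrna1 and Musk, whose KO levels carry the background limit, and Rapsn. In Myog+ cells the same 3 were called lower (4.6%) and 0 of 8 higher (10.6%), and there the background limit applies to the KO levels of Musk and Rapsn. In muscle-rich cells 9 reached 10 CPM, with Ache higher (11.2%) and Rapsn lower (5.37%). The median log2 KO/WT over members with 10 CPM was -0.72 in Pax7+, -0.59 in Myog+ and -0.47 in muscle-rich cells, beside 0.09, 0.18 and 0.10 over all genes. In muscle-rich cells Chrna1 at log2 -0.98 and Lrp4 at -0.91 lay just outside the rule, and both passed it under TMM (-1.09 and -1.02). Chrng likewise passed it under TMM in double-positive (-0.97, or -1.16 after TMM) and Myog+ cells (-0.99, or -1.22). So did Chrna1 over all cells (-0.86, or -1.04).

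**Figure D3:**
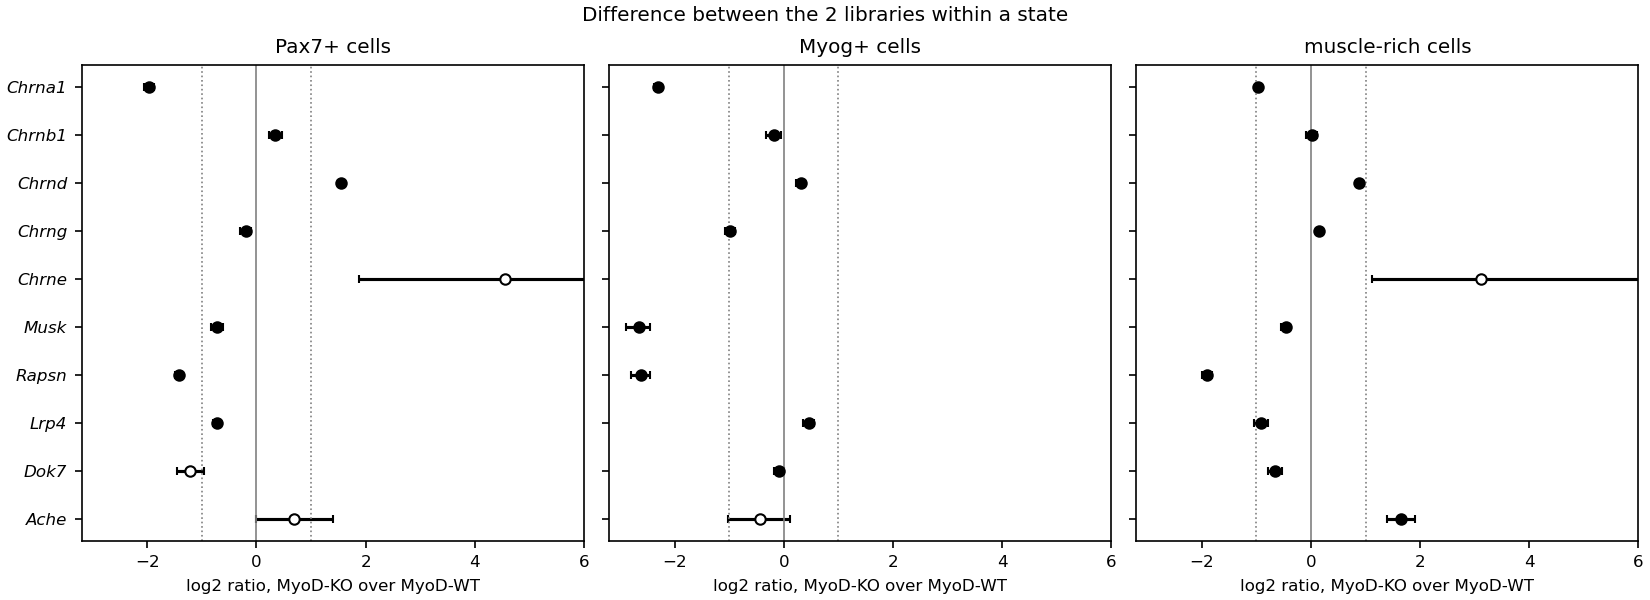
log2 ratio of KO over WT for each member in Pax7+, Myog+ and muscle-rich cells, with 95% counting intervals (the upper arm of Chrne runs past the axis). Dotted lines mark 2-fold, open points had under 10 CPM in both libraries, and Chrne has no point in Myog+ cells because WT had 0 UMIs. Rapsn lies past the 2-fold line in all 3 panels, and Chrna1 and Musk lie nearer the centre in muscle-rich than in Myog+ cells. Ache, an open point right of the centre in Pax7+ and left of it in Myog+ cells, lies past the right 2-fold line in muscle-rich cells.

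Within WT, 5 members were called higher in Myog+ than in Pax7+ cells (Chrna1, Chrnb1, Chrng, Musk and Dok7; background 7.63%) and 0 lower (11.1%). From Myog+ to muscle-rich cells 3 members were called higher (Chrna1, Chrng and Rapsn; 8.52%) and 0 lower (17%). Over the whole course, 7 of the 8 members with 10 CPM were higher in muscle-rich than in Pax7+ cells, all but Lrp4 (13.3%), and 0 lower (34%). Within KO, the 5 called higher from Pax7+ to Myog+ were Chrna1, Chrnb1, Chrng, Lrp4 and Dok7 (6.39%), with 0 lower (12.3%). From Myog+ to muscle-rich cells of KO 6 were higher (Chrna1, Chrnd, Chrng, Musk, Rapsn and Ache; 11.3%), and Lrp4 and Dok7 were lower (25.9%). Under TMM the Dok7 call was lost (log2 -1.08, or -0.69 after TMM) and Lrp4 was at the edge (-1.40, or -1.0). Over the KO course 6 of 9 were higher (Chrna1, Chrnb1, Chrng, Musk, Dok7 and Ache; 11.7%) and 0 lower (34.4%). Rapsn passed the rule at the late step in both libraries. Musk passed it at the late step in KO and at the early step in WT, and under TMM also at the late step in WT (log2 0.87, or 1.11 after TMM). The difference between the courses was not tested.

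Because the clones differ in how far their muscle-rich and Myog+ cells had gone, levels were also compared at matched sarcomere share. Rapsn in cells with under 0.2, 0.2 to 1, 1 to 5 and 5 to 15% sarcomere share was at 44.4, 46.5, 77.3 and 124 CPM in the WT clone, against 16.1, 12.8, 9.16 and 32.5 CPM in KO. The gap was widest at 1 to 5%, where KO was at 0.119 of WT. The KO interval there (7.28 to 11.4 CPM) overlapped that of the KO cells with Dcn (5.68 to 10.4 CPM). Chrna1 was at 30.8, 102, 378 and 832 CPM in the WT clone, against 11, 25.5, 154 and 420 CPM in KO, so KO lay between 0.249 and 0.504 of WT in the 4 ranges. Under 0.2% and at 0.2 to 1% these KO levels were below the 39.8 CPM of the KO cells with Dcn, so the background limit applies there. Musk was at 10.6, 17.0, 50.3 and 67.9 CPM in WT and 6.36, 5.53, 14.9 and 50.2 CPM in KO. Under 0.2% and at 0.2 to 1% the KO intervals of Musk overlapped that of the KO cells with Dcn. Chrnd was higher in KO in each range, 2.79-fold under 0.2% and 1.84-fold at 5 to 15%. Chrng was at 0.742 of WT at 0.2 to 1% and within 0.891 and 1.11 of it in the other 3 ranges. In 76 KO cells with 15 to 25% share, a range with 2 WT cells, Lrp4 was at 8.21 CPM, Musk at 27.1 and Ache at 22.2 CPM.

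Within the Myog+ state itself, matching changed the size of some gaps but not their direction for Chrna1, Musk and Rapsn. In cells with 1 to 5% share (159 KO, 465 WT) the KO/WT ratio was 0.393 for Chrna1, 0.219 for Musk and 0.0825 for Rapsn. At 0.2 to 1% (353 and 469 cells) the ratios were 0.212, 0.253 and 0.197. The KO levels in that range were 33.9, 4.27 and 7.76 CPM, none above the KO cells with Dcn (39.8, 5.36 and 7.78 CPM). The KO Rapsn level at 1 to 5%, 6.42 CPM, was also below theirs. The direction of Chrng turned with matching: its ratio was 0.503 in all Myog+ cells, 1.81 (1.2 to 2.86) under 0.2%, 0.562 at 0.2 to 1% and 0.877 at 1 to 5%. Lrp4 turned from 2.09 under 0.2% to 0.677 at 1 to 5%. Muscle-rich cells were also divided at 8 and 11%, a choice made after seeing the data. There Rapsn was called lower in KO in the ranges 5 to 8, 8 to 11 and 11 to 15% with ratios of 0.197, 0.259 and 0.307. Chrna1 was called lower in the upper 2 (0.511, 0.445 and 0.385), beside backgrounds of 4.28%, 4.52% and 4.31%. Ache was called higher in each (2.45, 5.85 and 4.96-fold), beside backgrounds of 13.4%, 12.9% and 10.8%.

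**Figure D4:**
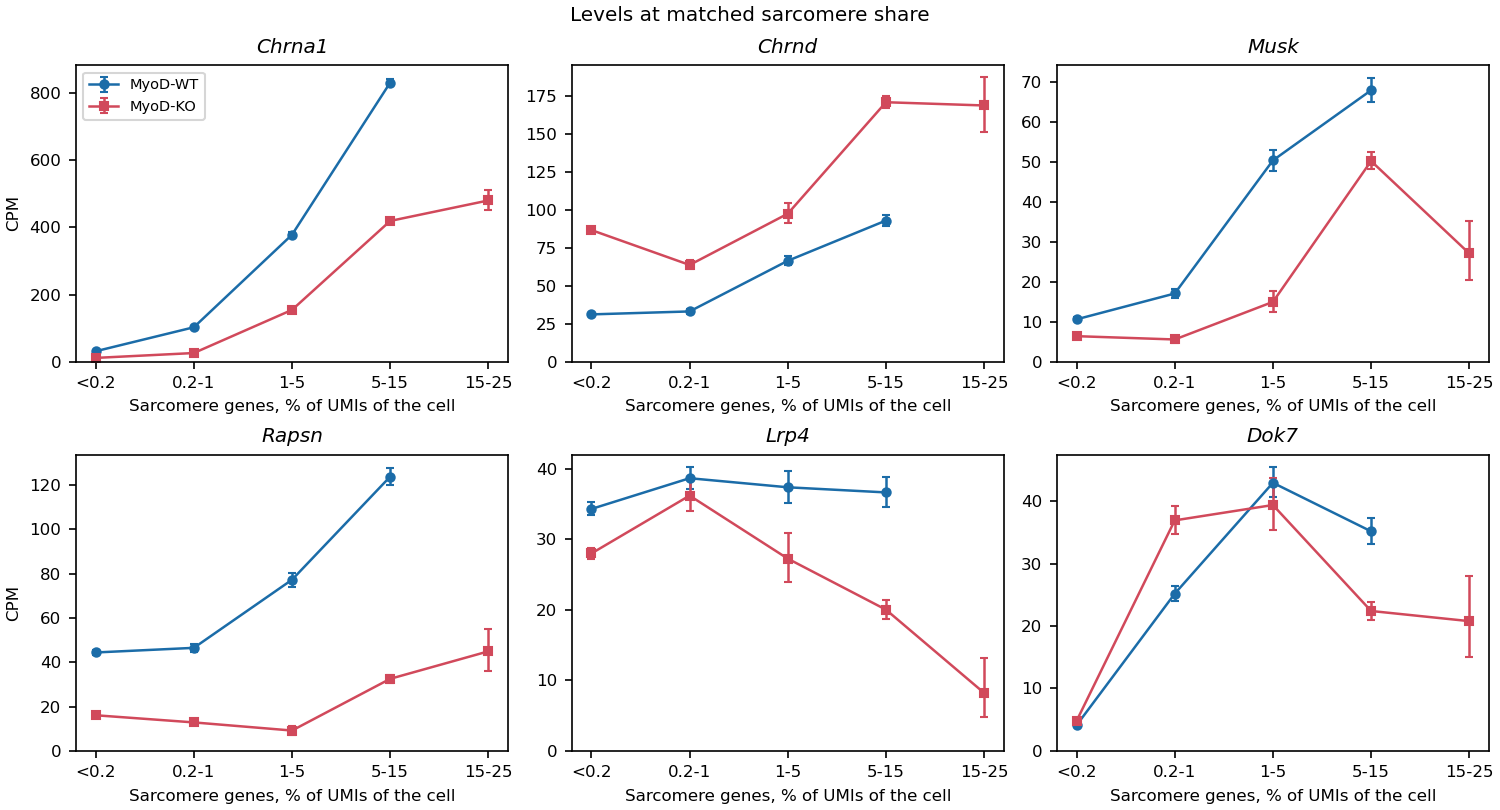
Level in CPM (linear axis) of 6 members in cells grouped by the share of their UMIs from 27 sarcomere genes, in WT (circles) and KO (squares), with 95% Poisson intervals. Groups under 20 cells are not drawn. At matched share Chrna1, Musk and Rapsn stay lower in KO, and Chrnd stays higher.

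Free RNA from lysed muscle cells can place muscle transcripts in other droplets. Its scale was taken from 8 late muscle genes outside the gate, such as Ckm and Casq1, given as the Pax7+ level in percent of the muscle-rich level. This was 0.991 to 8.38% in WT, with a median of 1.60%, where the highest value was that of Atp2a1 and the next was 4.00% for Eno3. In KO it was 1.16 to 24.9%, with a median of 3.11%, where the highest was that of Cacng1, which was itself called higher in KO Pax7+ cells, and the next was 5.4% for Ampd1. Chrnd at 33.2% in WT and 52.9% in KO, Rapsn at 36.9% and 51.8%, and Lrp4 at 97.4% and 110% stood above all 8 genes in both libraries. Chrnb1 (18.4% and 23.2%), Musk (17.4% and 14.5%) and Dok7 (9.85% and 6.70%) stood above all 8 in WT and above all but Cacng1 in KO. Chrna1 at 4.13%, Ache at 4.26% and Chrng at 5.91% lay between the highest 2 genes in WT. In KO Chrna1 at 2.08%, Ache at 2.21% and Chrng at 4.66% lay among the values of the 8 genes, so for these 3 a level in Pax7+ cells cannot be told apart from free RNA by this scale. In the KO cells with Dcn the muscle genes were at 1.15 to 5.85% of the muscle-rich level, and Chrna1 at 9.42% (39.8 CPM), more than in KO Pax7+ cells. Lrp4 was at 41.7%, Rapsn at 23.5% and Musk at 10.9% in these Dcn cells, and the other members at 0 to 6.87%. Chrna1, Lrp4, Rapsn, Musk and Chrnd (6.87%) thus stood above the range of the muscle genes in the Dcn cells. Whether these levels are free RNA or transcripts of the Dcn cells themselves was not tested. Overlap with them does not show that a state lacks expression. The Musk level of the Dcn cells, 5.36 CPM (3.64 to 7.61), overlapped that of KO Pax7+ cells.

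Other genes of the junction were counted by list between the clones. Genes called in muscle-rich cells were named by size, and those called in Pax7+ or Myog+ cells were named after their values were seen. Of 13 genes of agrin and MuSK signalling, 3 were called higher in KO and 0 lower, both in Pax7+ cells (13.8% of all genes higher) and in Myog+ cells (10.6%). They were the kinase gene Pak1, Dvl1, whose product binds MuSK, and Agrn, which encodes agrin. In Pax7+ cells the KO level of Pak1 was 49.9 CPM against 5.74 CPM, and that of Agrn 22.7 against 11 CPM. In muscle-rich cells Dvl1 was the 1 called among 11 with 10 CPM, at 40.1 CPM in KO against 9.22 CPM (11.2% of all genes higher).

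Of 8 listed genes of synaptic transcription, the neuregulin receptor gene Erbb3 was the 1 called. It was lower in KO Pax7+ cells (1.42 against 18.4 CPM), 1 of 6 with 10 CPM beside 4.11% of all genes. In Myog+ cells it was also lower (21.8 against 54.7 CPM), 1 of 6 beside 4.6%. In muscle-rich cells 0 of the 7 with 10 CPM were called (all genes 11.2% higher and 5.37% lower). In the list of activity-dependent repression 2 of 7 were called higher in KO muscle-rich cells (all genes 11.2%) and 0 lower (5.37%), namely Camk2b, a calmodulin-dependent kinase gene (43.0 against 10.9 CPM), and Hdac5, a histone deacetylase gene (17.7 against 7.71 CPM). In Pax7+ cells 4 of the same list had 10 CPM, of which Camk2d was called higher (all genes 13.8%) and Cdk5r1 lower (4.11%). In Myog+ cells 2 of 5 were called higher, Camk2b and Camk2d (all genes 10.6%), and 0 lower (4.6%).

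Of the synaptic matrix and scaffold list 6 of 12 were called higher in KO muscle-rich cells and 0 lower, beside the 11.2% of all genes. Among them were the laminin genes Lama5 (11 against 2.88 CPM) and Lamb2 (39.1 against 14.4 CPM), the syntrophin gene Sntb2 (10.9 against 4.10 CPM) and the dystroglycan gene Dag1 (191 against 77.5 CPM). In Pax7+ cells 6 of 12 were called higher (all genes 13.8%) and 1 lower (4.11%). In Myog+ cells 2 of 11 were called higher, near the 10.6% of all genes, and 0 lower (4.6%). The list's median log2 KO/WT was 0.86 in muscle-rich cells, beside 0.10 over all genes. Among neuronal nicotinic subunit genes, 0 of 11 reached 10 CPM in Pax7+ or muscle-rich cells, and Chrna4 reached 14.5 CPM in KO Myog+ cells, where WT had 0.549 CPM. Of 6 muscle membrane channel genes, 5 had 10 CPM in muscle-rich cells, where the potassium channel gene Kcnj2 was called higher in KO (16.1 against 6.75 CPM). This 1 of 5 stands beside 11.2% of all genes and is not read as a result about the list. Cacng1 was called higher in KO Pax7+ cells (167 against 14.2 CPM), the 1 gene of the list with 10 CPM there (all genes 13.8%). Cacna1s was called lower in KO Myog+ cells (2.31 against 17.7 CPM), 1 of 3 with 10 CPM beside 4.6% of all genes.

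The genes whose log2(CPM + 1) profile was most like that of each member were sought over 9 profiles, 4 ranges of sarcomere share in WT and 5 in KO, among 9251 genes. These profiles share libraries and depth, and the values are descriptions. Chrna1 was most like Tm6sf1 (Pearson r 0.998) and Smtn (0.993), which encodes smoothelin. Genes with profiles like that of Chrng included the sarcomere genes Myh3 (0.995) and Actn2 (0.995), both among the 27 that define the ranges. Chrnb1 was most like Nes, which encodes nestin (0.996), Dok7 like Rbm24 (0.988) and the fusion gene Mymx at rank 3 (0.944), Ache like Asb16 (0.998) and myoglobin Mb (0.993), and Chrnd like Adamtsl5 (0.991). Musk was most like Camk2a (0.985), Lrp4 like Snx25 (0.986) and Rapsn like Snx8 (0.971). None of the 9 members compared had another member among its 3 nearest. Among these 9 members themselves Chrnb1 and Chrng were closest (0.972), and Chrnd and Rapsn were at -0.10. The lowest values were those of Lrp4 with Ache (-0.77) and with Chrnd (-0.72).

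Chrna1, Rapsn and Lrp4 lie on chromosome 2, where the median log2 KO/WT was -0.22 in Pax7+, -0.12 in Myog+ and -0.20 in muscle-rich cells. Chrnd and Chrng lie on chromosome 1, where the medians were 0.37, 0.41 and 0.32. Musk, which was lower in KO (log2 -0.72, -2.66 and -0.47), lies on chromosome 4. The medians there were 0.51, 0.62 and 0.53, the highest of the autosomes in each state. Dok7 and Ache lie on chromosome 5 (0.03, 0.19 and 0.16) and Chrnb1 and Chrne on chromosome 11 (0.11, 0.21 and 0.22). Over the 19 autosomes the medians of muscle-rich cells ran from -0.32 to 0.53. The part of these chromosome-wide shifts in the members' values was not tested. Rapsn is overlapped by another annotated gene on the other strand and Ache by genes on either strand, none of which is in the gene list.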

How the data were processed

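The 2 libraries were made with a 10x Genomics 3' kit, version 3.1, from 12000 cells each. The authors deposited unnormalised UMI counts, 1 matrix per library. The matrix headers name Cell Ranger 7.2.0 as the software. Per the submitters' processing notes, GRCm39 was the genome build listed and Seurat was among the tools. Which annotation release was used, and whether reads in introns were counted, are not given in the sources used here. Cells with at least 1000 genes and at most 15% mitochondrial UMIs were kept. Scrublet in scanpy 1.11.5 (expected rate 0.06, seed 0) called 2 of 7318 WT cells (0.0273%), too few to be relied on, and 144 of 5782 KO cells (2.49%). Both sets were removed.

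UMIs were summed per state and library and scaled to CPM, with exact Poisson intervals. Ratios carry exact conditional binomial intervals and shares Clopper-Pearson intervals. All cover counting error only. Alternatives were other cuts for the states, all barcodes, a mean over cells, no minimum level, other thinning, removal of the 6% highest doublet scores, and TMM factors (edgeR 4.0.16, per pair of profiles), which move the log2 ratio of all genes by -0.11 to -0.23 between clones and by 0.13 to 0.52 between states.

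All 10 members are named. Up to 4 genes per list were named by the size of their log2 ratio in muscle-rich cells among those called. Members, lists and cuts were chosen with earlier results of these data known, and the matched ranges of Myog+ and muscle-rich cells after seeing the data. Of the synaptic transcription list, Nrg1 was left out because its symbol stands for 2 identifiers. The reference at hand was GRCm38, another build, used for names, neighbours and the printed promoters.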

Additional observations from a re-analysis of the deposited data

Results flagged for a closer look

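The ratio of Myog+ to Pax7+ cells lay on opposite sides of 1 in the clones for 3 members. Chrnd was at 1.69 in WT and 0.714 in KO. Musk was at 3.14 in WT and 0.821 in KO, where both states were under 10 CPM. Rapsn was at 1.29 in WT and 0.562 in KO. All 3 KO ratios stayed below 1 after TMM. The median sarcomere share of Myog+ cells was 0.900% in WT and 0.305% in KO. In 64 WT Myog+ cells under 0.2% share, Chrnd, Musk and Rapsn were at 27.2, 11.4 and 37.1 CPM (55, 23 and 75 UMIs). WT Pax7+ cells were at 30.9, 11.8 and 45.7 CPM. In 159 KO Myog+ cells at 1 to 5% share they were at 92.7, 12.4 and 6.42 CPM, against 90.5, 7.14 and 17.1 CPM in KO Pax7+ cells. In KO the side of 1 thus changed at this share for Musk, and for Chrnd by a small margin, while Rapsn stayed below its Pax7+ level. The WT values under 0.2% rest on few UMIs, and no side is read from them. The part of the share in these ratios was not tested. With 1 library per genotype these differences were not tested.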

How the results depend on the processing

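The count of members called lower in KO muscle-rich cells, 1 (Rapsn) in the values reported, was 3 (with Chrna1 and Lrp4) under TMM, with the mean over cells of each cell's CPM and with all deposited barcodes. It was 2 (with Chrna1) with the muscle-rich cut at 10% and within the 8 to 11% and 11 to 15% ranges of sarcomere share, which were chosen after seeing the data. The count called higher, 1 (Ache), was 2 with no minimum level, which adds Chrne. The ε share of γ plus ε UMIs in KO muscle-rich cells was 0.356% with all barcodes against 0.221%, and in WT it was 0% with the cut at 10% against 0.0281%. The cause of these moves was not tested. Under TMM 8 instead of 6 members were higher in muscle-rich than in Pax7+ cells of KO, Chrnd and Rapsn being added. With the 6% highest doublet scores removed that count was 7, Rapsn being added, and the counts between the clones in muscle-rich cells were the same as reported. No called ratio changed direction under the alternatives run.

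No paired analysis was possible because each group holds 1 library; no group would keep a library if 1 were left out. The profiles over sarcomere share used 9 groups of cells because the others held under 20 cells. At these depths Chrne levels of WT rest on at most 2 UMIs a state, and the intervals of Ache in KO and WT overlap outside muscle-rich cells in the 3 other states described.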
